A study of Mus musculus with 6 samples.

Results

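The expression of Ctcf and of the genes of the cohesin machinery was examined in cultures labelled as mouse female germline stem cells (FGSCs), with and without knockdown of CTCF. The 10 genes were Ctcf, the ring subunits Smc1a, Smc3 and Rad21, the alternative STAG subunits Stag1 and Stag2, the loader Nipbl, the release factor Wapl and the ring-bound regulators Pds5a and Pds5b. They were chosen by name from the known biology of the complex, with earlier results of these data known. All 10 were found among the 24728 gene symbols with FPKM values (fragments scaled to transcript length and to the number of fragments mapped).

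RNA-seq was performed on 3 control samples and 3 samples with short hairpin RNA knockdown of CTCF (shCTCF). All 6 samples were described as C57BL/6 FGSCs at more than 20 passages, grown on mitotically inactivated STO fibroblast feeders. Per the study's methods, the hairpin was delivered with a lentivirus. The treatment of the controls is not described in the labels beyond the word control, and nothing in the labels states that the replicates came from separate cultures, so the p-values measure only the spread between these samples.

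Cohesin is a ring of SMC and kleisin proteins that encloses DNA. The ring is loaded on chromatin by NIPBL and MAU2, extrudes loops of DNA until it meets CTCF bound to its motif, and is opened again by WAPL together with PDS5 proteins. The same ring holds sister chromatids together from S phase until mitosis, so its subunits are used both in the folding of the interphase genome and in cell division.

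Total counts per sample lay between 1686052 and 7044272. The smallest library was control replicate 2, which stood apart from the other controls for several genes described here. Among 6 FGSC markers, Dppa3 and Gfra1 were listed at 0 in all samples, Ddx4, Pou5f1 and Dazl were listed at 0 in all controls and stayed under 1 FPKM after knockdown, and Ifitm3 reached at most 1.21 FPKM in the controls and between 10.4 and 11.1 FPKM after knockdown. A value of 0 in the FPKM table can be a failed estimate, since Rfc4, a replication factor, was at 0 FPKM in all samples with 278, 35 and 275 counts in the controls. On the count table Ddx4, Pou5f1, Dazl and Gfra1 had 0 counts in every sample and Dppa3 had 1 count in all, which is under the floor of 3 counts for these 5 germline markers, although 0 counts in this table can also come from overlapping accessions. The 15 mast cell and basophil markers on the list summed to between 1726 and 1764 FPKM in the controls and between 1741 and 1822 FPKM after knockdown, with Kit at 541 FPKM or more and Ptprc, the pan-leukocyte gene, at 83.7 FPKM or more in every sample, while Fcer1a and Prss34 were at 0. These near-equal sums held opposite changes. Of the 11 markers tested, 2 fell, namely Ctsg (-5.55) and Cpa3 (-1.65), and 4 rose, among them Hdc (4.07) and Kit (0.45). In every sample Gata2 was at 467 FPKM or more, Cpa3 at 79.3 or more and Spi1 at 60.4 or more. Of the 15 markers, 4 stayed under 1 FPKM in all samples, namely Fcer1a, Prss34, Ms4a2 and Tpsb2. Tpsab1, Cma1 and Mcpt8 reached at most 2.72, 4.24 and 5.3 FPKM. Kit had at most 3 counts in any sample, and low counts can also come from overlapping accessions. The high FPKM of Ptprc, Gata2, Cpa3 and Spi1 and the near-absent germline markers go against the FGSC label, and the identity of the cells was not tested. The 15 STO feeder markers summed to 10.5 to 11 FPKM in the controls and 23.5 to 24.7 FPKM after knockdown, with Col3a1, Lum and Loxl1 at 0. The mean of Col6a1 rose from 0.144 to 15.3 FPKM. Without it, the other markers summed to between 10.4 and 11 FPKM in the controls and between 8.64 and 9.05 FPKM after knockdown. Of the 5 feeder markers tested on FPKM, 2 were called lower, namely Dcn (-1.89) and Pdgfrb (-1.16). The 3 called higher were Col6a1, Pdgfra (1.31) and Thy1 (1.14). On counts 4 feeder markers could be tested, and all 4 were called higher by edgeR. Of 10 granulosa and theca markers, 9 stayed under 1 FPKM in all samples. On counts 2 of them could be tested, and both were called higher after knockdown by edgeR, namely Amh (1 to 6 counts in the controls and 9 to 12 counts after knockdown) and Star (0.73, adjusted p = 0.00721). For comparison with these marker calls, 44.2% of all genes tested on FPKM were called lower and 28.8% higher. On counts, 2519 of 7339 genes were called lower and 2553 higher. In bulk RNA, fewer cells of a type and less RNA per cell cannot be told apart, and the part of cell composition in the results was not tested.

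Ctcf was checked first, because it was the target of the hairpin. It was located at chr8:108160438-108206822 on the plus strand of mm9. Its FPKM was 58.2, 56.1 and 53.5 in control replicates 1, 2 and 3, compared with 0.740, 0.550 and 0.629 in shCTCF replicates 1, 2 and 3. The groups did not overlap, and the mean fell from 55.9 ± 2.34 to 0.640 ± 0.0956 FPKM (SD, n = 3 in each group), which is 98.9% lower. The change was -5.12 ± 0.09 (SE) on the log2(FPKM + 1) scale, with an adjusted p of 1.1e-08 by limma. On this scale the size depends on the pseudocount, and it was -6.25 and -6.44 with pseudocounts of 0.1 and 0.01. Among the 9974 genes tested on FPKM, Ctcf had the 4th lowest log2 fold change. Among 6079 genes with at least 10 FPKM in the mean of the controls, 14 retained a smaller percentage of their control level than the 1.14% of Ctcf.

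The promoters of Ctcf, of the ring subunit gene Smc3, which fell, and of Stag1, which rose, are shown as sequence context. Any link between these sequences and the changes was not tested, and the fall of Ctcf was set by the design. Each line holds the 250 bases before the annotated start in RefSeq (GRCm38.p6, plus strand), 5′ to 3′, with motif matches in capitals.
Ctcf, chr8:105636288-105636537: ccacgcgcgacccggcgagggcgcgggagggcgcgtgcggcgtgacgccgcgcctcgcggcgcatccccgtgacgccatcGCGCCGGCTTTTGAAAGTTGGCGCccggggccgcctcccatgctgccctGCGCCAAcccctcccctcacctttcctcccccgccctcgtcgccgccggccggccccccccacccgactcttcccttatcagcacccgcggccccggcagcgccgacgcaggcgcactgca
Smc3, chr19:53600146-53600395: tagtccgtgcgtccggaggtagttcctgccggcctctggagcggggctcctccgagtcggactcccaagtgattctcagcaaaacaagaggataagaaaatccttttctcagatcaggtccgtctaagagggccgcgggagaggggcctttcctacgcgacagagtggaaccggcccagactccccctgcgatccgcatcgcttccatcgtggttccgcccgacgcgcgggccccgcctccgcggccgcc
Stag1, chr9:100643198-100643447: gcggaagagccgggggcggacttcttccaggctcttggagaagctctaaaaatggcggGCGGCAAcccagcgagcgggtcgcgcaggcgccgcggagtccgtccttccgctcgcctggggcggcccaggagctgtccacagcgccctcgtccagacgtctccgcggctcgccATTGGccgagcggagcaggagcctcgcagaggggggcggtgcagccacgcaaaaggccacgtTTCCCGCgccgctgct

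The motifs were searched on both strands. The first class held E2F-type sites, with TTCCCGC as the reference form, TTGGCGC as another, and with TTCGCGC as well as the variant TTGCCGC. A site of this class occurred in 7.89% of the 32851 promoter windows of the table. The other letters searched were the cell cycle homology element TTTGAA (16.0%), the CCAAT box (33.8%) and AGNNGGCGC from the core of the CTCF motif (5.84%). In the Ctcf promoter, 2 matches to the CTCF core began 170 and 155 bases before the start, the E2F-type matches began at 153 and 121 bases, and TTTGAA began at 161 bases. The second core match and the E2F-type match at 153 bases overlapped, and TTTGAA lay end to end between the core matches. Stag1 held E2F-type matches at 192 and 16 bases and a CCAAT box at 78 bases, and Smc3 held no match to any of these letters. A promoter was found for 7 of the 10 genes. Of the other four, Pds5a held 3 E2F-type matches, 2 of which overlapped, and 1 match to the CTCF core, Pds5b held 1 match of each of the 4 classes, Wapl held 2 CCAAT boxes and 1 match to the CTCF core, and Smc1a held 1 CCAAT box.

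The ring subunits fell together. Rad21, the kleisin that closes the ring (chr15:51794150-51823306, minus strand), had 127, 122 and 125 FPKM in the controls and 42.9, 46.8 and 45.2 FPKM after knockdown. Its mean was 64.0% lower, with a log2 fold change of -1.45 ± 0.06 (SE) and an adjusted p of 6.38e-07 by limma. The lowest control was far above the highest shCTCF sample, and 6% of the genes tested had a lower log2 fold change.

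Smc1a, one of the 2 SMC arms of the ring (chrX:148450971-148496516, plus strand), had 78.8, 94.8 and 77.3 FPKM in the controls and 35.7, 36.6 and 33.9 FPKM after knockdown. It was 57.7% lower, at -1.21 ± 0.09 (SE) on the log2 scale with an adjusted p of 1.08e-05 by limma. Control replicate 2 was the highest sample for Smc1a, and the groups did not overlap. Smc3, the other arm (chr19:53674886-53720321, plus strand), had 70.4, 57.7 and 65.5 FPKM in the controls and 28.4, 28.6 and 33.1 FPKM after knockdown. It was 53.5% lower, with a log2 fold change of -1.08 ± 0.10 (SE) and an adjusted p of 2.95e-05 by limma. For Smc3, control replicate 2 was the lowest control, and it was still above every shCTCF sample.

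The plot of FPKM by gene and sample shows Ctcf far below all other genes of the group after knockdown, and the 3 ring subunits clearly apart between the groups.

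**Figure D1:**
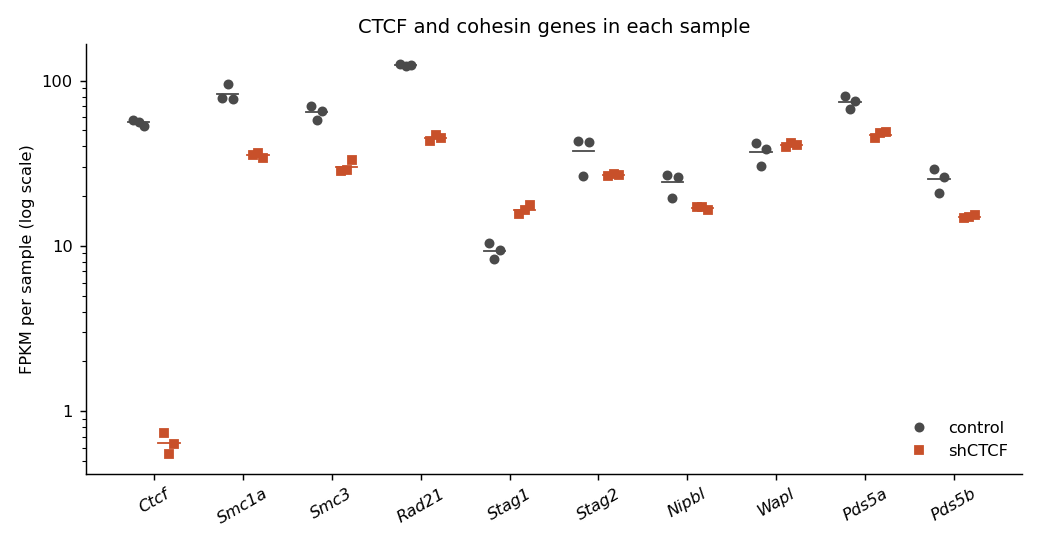
FPKM of the 10 genes in each of the 6 samples on a log scale, with control samples as circles, shCTCF samples as squares and the mean of each group (n = 3) as a horizontal line. The groups do not overlap for Ctcf, Smc1a, Smc3, Rad21, Stag1, Nipbl, Pds5a and Pds5b, and Stag2 and Wapl overlap. Stag1 is the one gene without overlap that has higher shCTCF samples. Separation of the groups was not counted over all genes, of which 44.2% were called lower and 28.8% higher on FPKM.

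Of the alternative subunits, Stag1 rose and Stag2 did not pass the test. STAG proteins bind RAD21, and each ring carries one of them. Stag1 (chr9:100543867-100858963, plus strand) had 10.4, 8.29 and 9.44 FPKM in the controls and 15.6, 16.5 and 17.7 FPKM after knockdown. It rose 1.77-fold, by 0.77 ± 0.10 (SE) on the log2 scale, with an adjusted p of 0.00023 by limma, and every shCTCF sample was above every control. A higher log2 fold change was seen in 15.6% of the genes tested.

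Stag2 (chrX:39502589-39630363, plus strand) had 43.1, 26.6 and 42.6 FPKM in the controls and 26.6, 27.3 and 26.9 FPKM after knockdown. Control replicate 2 lay with the shCTCF samples and not with the other controls. The difference was -0.43 (95% confidence interval -0.83 to -0.02) and did not pass the threshold after adjustment (adjusted p = 0.0552 by limma). Without control replicate 2 it was -0.65 with an adjusted p of 8.97e-06, so that this library decided the call. With the replicate number as a block the adjusted p was 0.0415. The difference was smaller with samples scaled to the same median (-0.25, adjusted p = 0.214) and with quantile normalization (-0.28, adjusted p = 0.18).

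The ratio of Stag1 to Stag2 was 0.240, 0.312 and 0.222 in control replicates 1, 2 and 3, compared with 0.585, 0.604 and 0.658 after knockdown. A ratio within a sample does not depend on the scaling between samples. Its mean differed by 1.27 ± 0.16 (SE) on the log2 scale, a 2.41-fold higher ratio after knockdown, and the groups did not overlap. With 3 samples against 3, the exact two-sided permutation test cannot give a p below 0.1, which was the value found.

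The loader gene fell, and the release factor did not pass the test. Nipbl, which loads cohesin (chr15:8239824-8394463, minus strand), had 26.8, 19.6 and 26.3 FPKM in the controls and 17.2, 17.3 and 16.6 FPKM after knockdown. It was 29.7% lower, at -0.47 ± 0.12 (SE) with an adjusted p of 0.0081 by limma. The groups did not overlap, but with quantile normalization the difference was -0.30 and did not pass the threshold (adjusted p = 0.0563), and 35.6% of all genes tested had a lower log2 fold change. Mau2, the partner of NIPBL in the loader, had 11.3, 15.7 and 11.2 FPKM in the controls and 13.3, 14.9 and 13.2 FPKM after knockdown. Its difference of 0.12 ± 0.13 (SE) did not pass the threshold (adjusted p = 0.437 by limma). Without control replicate 2, the highest of all samples for Mau2, the difference was 0.27 with an adjusted p of 0.0108.

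Wapl, which opens the ring (chr14:35487114-35561169, plus strand), had 41.8, 30.3 and 38.7 FPKM in the controls and 39.5, 41.8 and 40.8 FPKM after knockdown. The groups overlapped, and the difference of 0.15 (95% confidence interval -0.12 to 0.42) did not pass the threshold (adjusted p = 0.277 by limma). When the samples were scaled to the same median the difference was 0.33 with an adjusted p of 0.0279, and with quantile normalization it was 0.30 with an adjusted p of 0.048. The call for Wapl therefore depended on the scaling between samples.

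Pds5a and Pds5b, which bind the ring and act both in its release and in its protection during cohesion, both fell. Pds5a (chr5:65999009-66089214, minus strand) had 81.3, 67.0 and 75.7 FPKM in the controls and 44.9, 48.0 and 48.7 FPKM after knockdown, a decrease of 36.8%. Its log2 fold change was -0.65 ± 0.08 (SE), with an adjusted p of 0.000228 by limma. Pds5b (chr5:151476402-151613245, plus strand) had 29.0, 21.0 and 26.1 FPKM in the controls and 14.8, 14.9 and 15.4 FPKM after knockdown, a decrease of 40.7%. The change was -0.71 ± 0.12 (SE), with an adjusted p of 0.000873 by limma. For both genes control replicate 2 was the lowest control, and no control fell within the range of the shCTCF group. The ratio of Pds5a to Pds5b lay between 2.80 and 3.20 in the controls and between 3.03 and 3.22 in the shCTCF group, and these ranges overlapped (log2 difference 0.08 ± 0.06 SE, exact permutation p = 0.3).

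Of the 10 genes, 7 were called lower, 1 higher and 2 did not pass the threshold. Across all genes tested on FPKM, 44.2% were called lower and 28.8% higher, and the median log2 fold change was -0.17, so that being called lower was common in this comparison. The median over the 10 genes was -0.68. Relative to the shift of all genes, the difference of Wapl lay above the median gene, as did that of Stag1, while that of Stag2 and Nipbl lay below it. When samples were scaled to the same median, 36.2% of all genes were called lower, and the 10 genes gave 7 lower and 2 higher. A log2 fold change of -1 or under with a call was found for 4 of the 10 genes, compared with 14.9% of all genes tested. These were Ctcf, Rad21, Smc1a and Smc3. Ctcf was the target of the hairpin, so its fall was set by the design. It is included in each of these counts of the 10 genes and in their median of -0.68.

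**Figure D2:**
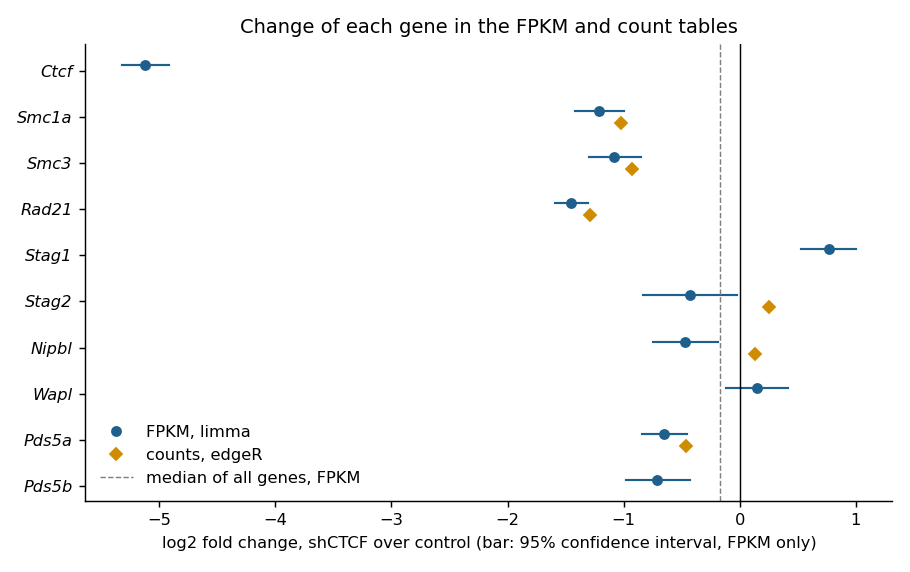
Log2 fold change (shCTCF over control, n = 3 in each group) of each gene on log2(FPKM + 1) by limma, with its 95% confidence interval, and on counts by edgeR where the gene could be tested, with the dashed line at the median of all genes on FPKM (-0.17). Rad21, Smc1a, Smc3 and Pds5a lie on the same side in both tables, Stag2 and Nipbl lie on opposite sides of 0, and 4 genes have no value on counts.

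The order of the levels, which FPKM allows between genes because it is per length, was altered after knockdown. In the controls Rad21 was highest at 125 FPKM, followed by Smc1a at 83.6, Pds5a at 74.7, Smc3 at 64.5, Ctcf at 55.9, Stag2 at 37.4, Wapl at 36.9, Pds5b at 25.4, Nipbl at 24.2 and Stag1 at 9.36 FPKM. Neighbours whose samples overlapped were Smc1a and Pds5a, Pds5a and Smc3, Smc3 and Ctcf, Stag2 and Wapl, and Pds5b and Nipbl. In the shCTCF group Pds5a was highest at 47.2 FPKM, then Rad21 at 44.9, Wapl at 40.7, Smc1a at 35.4, Smc3 at 30.0, Stag2 at 26.9, Nipbl at 17.0, Stag1 at 16.6, Pds5b at 15.0 and Ctcf at 0.640 FPKM. Pds5a and Rad21 overlapped there, as did Nipbl and Stag1. Wapl thus stood below all 3 ring subunits in the control means and above Smc1a and Smc3 in every shCTCF sample. The sum over the 10 genes was between 504 and 567 FPKM in the controls and between 266 and 279 FPKM after knockdown.

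The balance of the genes within a sample was compared over 11 pairs, of which 8 did not overlap between the groups. The ratio of Wapl to Smc3 was 0.594, 0.525 and 0.591 without knockdown, compared with 1.39, 1.46 and 1.23 with knockdown, a log2 difference of 1.26 ± 0.09 (SE). Nipbl to Wapl, the loader over the release factor, was 0.640, 0.648 and 0.680 without knockdown, compared with 0.436, 0.413 and 0.408 with knockdown, a log2 difference of -0.65 ± 0.04 (SE). Both ratios were apart between the groups by more than the spread of the samples. Rad21 to Smc3 was lower after knockdown by -0.37 ± 0.10 (SE) on the log2 scale, and Stag2 to Smc3 and Nipbl to Smc3 were higher by 0.66 ± 0.17 and 0.61 ± 0.11 (SE). Smc1a to Smc3 overlapped (-0.13 ± 0.20 SE, exact permutation p = 0.6), as did Mau2 to Nipbl (0.63 ± 0.31 SE, exact permutation p = 0.3). All 8 pairs without overlap had the smallest possible exact permutation p of 0.1, and 0.138 after adjustment over the 11 pairs. Among all 9708 other genes above 0 in every sample, the ratio to Smc3 did not overlap for 79.4%, so separation of a ratio to Smc3 was usual. No such share was computed for the pairs without Smc3, such as Stag1 to Stag2. The sizes of the differences are given as a description.

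**Figure D3:**
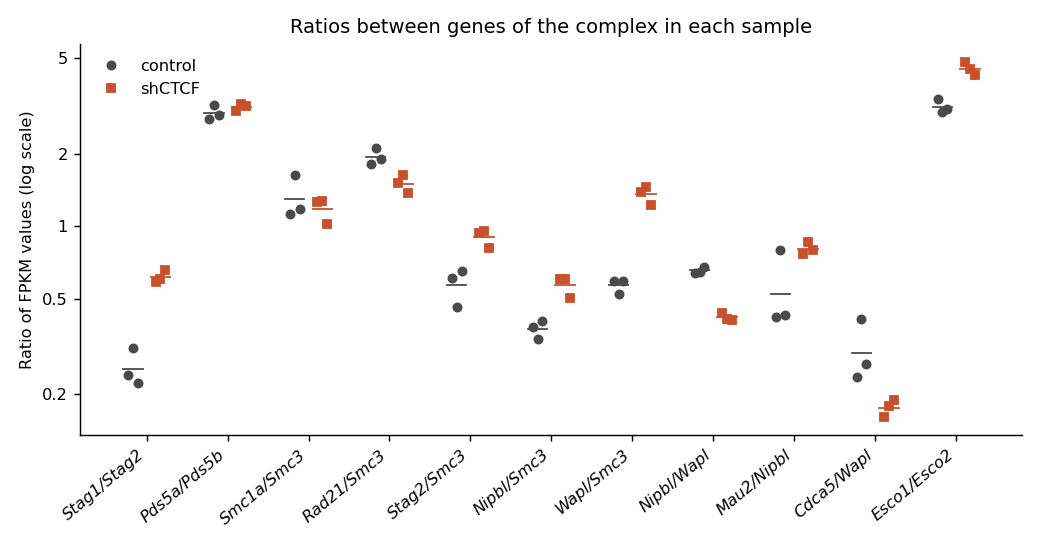
Ratio of the FPKM values of 2 genes within each sample on a log scale, with control samples as circles, shCTCF samples as squares and the geometric mean of each group (n = 3) as a line. Stag1 to Stag2 and Wapl to Smc3 show the widest gaps, both upward after knockdown, and Pds5a to Pds5b, Smc1a to Smc3 and Mau2 to Nipbl overlap.

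The deposited counts were used as a second measure. For Rad21 the control libraries held 5898, 1460 and 6126 counts and the shCTCF libraries 1787, 1781 and 2165 counts, with a log2 fold change of -1.29 ± 0.07 (SE) and an adjusted p of 6.79e-09 by edgeR. Smc1a changed by -1.02 (adjusted p = 3.68e-07), Smc3 by -0.93 (adjusted p = 1.43e-06) and Pds5a by -0.46 (adjusted p = 0.000224) in the same edgeR fit. CPM were counts scaled to library size and to the TMM normalization factors of the edgeR fit. On that scale each of these genes was lower in all 3 shCTCF samples than in any control. They were 4 of the 6 genes that could be tested on counts, where 34.3% of all 7339 genes tested were called lower and the median log2 fold change was -0.02.

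The count table could not be used for the other genes in the same way. Ctcf, Stag1, Wapl and Pds5b had 0 counts in all 6 samples, although their FPKM reached 58.2, 17.7, 41.8 and 29.0. In this table a fragment that overlapped the exons of more than 1 transcript accession was given to none of them. Smc1a, Smc3, Rad21 and Pds5a each had 1 accession, with 100% of its exon bases to itself. Of the exon bases of Ctcf, only 3 belonged to 1 accession alone, compared with 3823 bases in the longest accession (0.0785%), and the percentage was 0.0957 for Pds5b, 0.283 for Wapl and 1.17 for Stag1. No exon base was shared with another gene symbol for any of the 10 genes.

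The bases that told the accessions apart are shown for Ctcf, Wapl and Pds5b, since the count values of these genes rested on them. For Pds5b, 1 further base at the end of the last exon of its other accession is not shown. Each line gives the mm9 plus strand, 5′ to 3′, with the bases present in the exon of one accession only in capitals and 25 bases on either side.
Ctcf, start of exon 11 of 12, chr8:108203946-108203998: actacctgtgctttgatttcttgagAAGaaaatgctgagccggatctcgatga
Wapl, start of exon 4 of 19, chr14:35508148-35508215: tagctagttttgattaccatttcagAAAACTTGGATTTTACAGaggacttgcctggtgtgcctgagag
Pds5b, end of exon 31 of 35, chr5:151599221-151599276: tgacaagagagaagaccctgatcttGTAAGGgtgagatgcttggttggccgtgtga

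The 3 stretches were 3, 18 and 6 bases long and lay within annotated coding sequence (GENCODE). The split of a gene's FPKM between its accessions rested on such stretches as well. For Ctcf the accession with the 3 extra bases held between 48.6% and 51.5% of the gene's FPKM in the controls, and either 0 or 100% in the shCTCF samples, where the total was under 1 FPKM. For Wapl the accession without the 18 bases had 5.63, 0 and 4.81 FPKM in the controls and 10.4, 11.2 and 10.9 FPKM after knockdown, while the other accession had 36.1, 30.3 and 33.9 FPKM and then 29.0, 30.6 and 29.9 FPKM. The control samples thus differed widely for the shorter form, and the value of 0 was that of control replicate 2. For Stag1, 1 of its 3 accessions held all of the FPKM in the controls and between 81.3% and 100% after knockdown.

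Stag2 and Nipbl lay between these cases. Stag2 had 722 bases in 1 accession alone, 12.1% of the longest accession, which were mostly alternative first exons, with 48, 13 and 46 counts in the control libraries and 42, 42 and 50 counts in the shCTCF libraries. Nipbl had 546 such bases, a stretch at its last exon that is spliced out of one accession (chr15:8241591-8242136), with 25, 6 and 9 counts and 12, 14 and 21 counts. On summed counts neither gene passed the threshold (Stag2 0.25 ± 0.20 SE, adjusted p = 0.293, and Nipbl 0.13 ± 0.42 SE, adjusted p = 0.79, by edgeR), and both differences had the opposite sign to those on FPKM. Scaled to library size, Stag2 was 6.94, 7.25 and 6.26 CPM without knockdown, compared with 7.72, 8.39 and 7.82 CPM with knockdown, so that the groups did not overlap. The accessions of Stag2 had unlike counts. The one with the most counts had 28, 7 and 28 in the control libraries and 36, 38 and 42 in the shCTCF libraries, and it was called higher on its own (0.81, adjusted p = 0.00865 by edgeR). The next had 18, 3 and 15 counts and then 2, 4 and 6 counts.

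**Figure D4:**
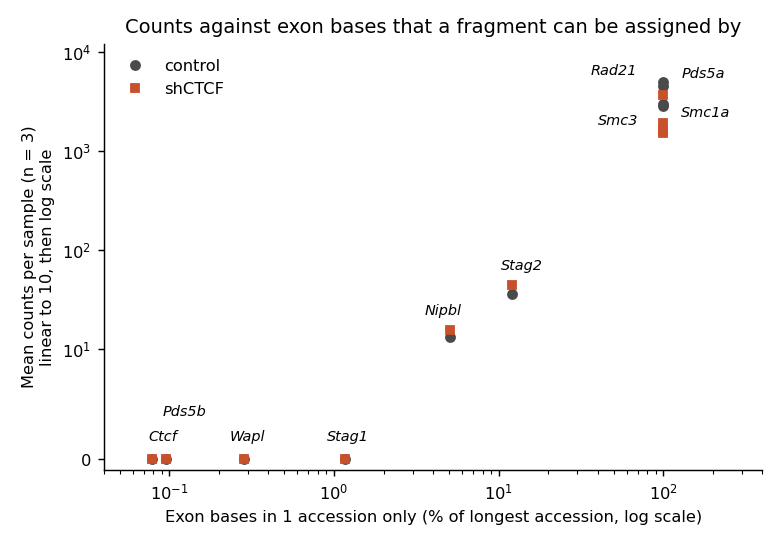
Mean counts per sample in each group (n = 3, linear up to 10 and log above) against the percentage of exon bases that lie in 1 accession only (log scale) for the 10 genes. The 4 genes with 100% of bases to themselves have the highest means, Stag2 and Nipbl have means under 50 counts, and Ctcf, Pds5b, Wapl and Stag1 are at 0.

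The remaining regulators of cohesin were taken from a list of 20 genes, all of which could be tested on FPKM. In that list 13 genes fell, 1 rose and 6 did not pass the threshold, with a median log2 fold change of -0.57 compared with -0.17 over all genes, of which 44.2% were called lower and 28.8% higher. Of the acetyltransferases that lock the ring on DNA, Esco1 rose and Esco2 did not pass the test. Esco1 had 13.5, 5.57 and 13.2 FPKM in the controls and 19.2, 18.1 and 18.4 FPKM after knockdown, which was 0.82 ± 0.28 (SE) higher with an adjusted p of 0.0298 by limma. On counts it was also higher, by 0.84 ± 0.20 (SE) with an adjusted p of 0.00278 by edgeR. Control replicate 2 was far below the other controls for Esco1. Without it the difference was 0.45 with an adjusted p of 0.000263, and without any one shCTCF replicate the adjusted p was between 0.0695 and 0.0865. Esco2 overlapped between the groups (3.98, 1.87 and 4.26 against 3.97, 4 and 4.33 FPKM, adjusted p = 0.297 by limma).

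Hdac8, which removes that acetyl mark from SMC3, fell from 10.6, 12.9 and 8.96 FPKM to 4.54, 5.48 and 6.05 FPKM. Its log2 fold change was -0.89 ± 0.15 (SE) with an adjusted p of 0.000861 by limma. Cdca5, which encodes sororin, the antagonist of WAPL in S and G2 phase, fell from 9.85, 12.5 and 10.3 FPKM to 6.36, 7.48 and 7.70 FPKM (-0.54 ± 0.12 SE, adjusted p = 0.00356 by limma). Both genes were separate between the groups. The genes of the list that fell most acted in mitosis and replication, namely Plk1, a mitotic kinase that removes cohesin from chromosome arms, at -2.63 ± 0.08 (SE), Pttg1, the securin gene, at -1.65 ± 0.15 and Timeless, of the replication fork, at -1.65 ± 0.11, all with an adjusted p of 3.23e-05 or lower by limma.

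The meiotic subunits were low on FPKM. Smc1b, Rad21l and Stag3 were listed at 0 FPKM in all controls and reached at most 0.137 FPKM after knockdown, and they had at most 6 counts in any sample. Rec8, the meiotic kleisin, had 1.31, 2.27 and 1.73 FPKM in the controls and 0.106, 0.116 and 0.0465 FPKM after knockdown, and its mean over the samples was below the minimum of 1 FPKM for the test, while all controls were above that level. Rec8 had 0 counts in all samples, and low counts of these genes can also come from overlapping accessions. Ctcfl, the germline paralogue of Ctcf, was listed at 0 in all samples except 0.0276 FPKM in shCTCF replicate 3.

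Among the 15 other proteins known to bind with CTCF or to share its sites, 8 genes fell, 1 rose and 6 did not pass the threshold (median -0.29), compared with 44.2% lower and 28.8% higher over all genes. With samples scaled to the same median it was 6 lower and 3 higher. Top2b, a topoisomerase at loop anchors, fell by -1.56 ± 0.13 (SE), Trim28 by -1.50 ± 0.09 and Parp1 by -1.40 ± 0.10, all with an adjusted p of 1.74e-05 or lower by limma. Brd2 rose by 0.20 ± 0.07 (SE) on FPKM with an adjusted p of 0.0352, a call that was lost without any one replicate other than control replicate 2 (adjusted p up to 0.127), and it was -0.35 on counts.

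The related SMC complexes gave a comparison. Of 14 genes of condensin, which compacts mitotic chromosomes, and of the SMC5/6 complex, which acts in DNA repair, 12 fell and none rose on FPKM by limma, with 13 below 0 in log2 fold change and a median of -0.83, compared with 44.2% of all genes called lower. Nsmce4a fell most, by -2.19 ± 0.09 (SE), then Ncapd2 by -1.92 ± 0.10 and Ncapg by -1.44 ± 0.28. On counts, 8 of the 10 genes of this list that could be tested fell and none rose by edgeR, compared with 34.3% of all genes called lower. Lower levels were thus seen in these complexes as well as in cohesin.

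Lists of cell cycle genes and of interferon response genes moved in the same samples, and their part in the values of cohesin was not tested. For comparison, 44.2% of all genes tested on FPKM were called lower and 28.8% higher. All 20 G2/M genes fell, with a median of -1.57, and their summed level was 1220 to 1225 FPKM in the controls and 374 to 395 FPKM after knockdown, with Cdc20 (-2.47), Ccnb1 (-2.44) and Bub1b (-2.27) falling most. Of 19 S phase genes tested, 12 fell and 6 rose (median -0.59), with Mcm7 (0.06 on counts, adjusted p = 0.89 by edgeR), Mcm6 and Mcm3 among those that fell and Ccne1, Ccne2 and Rrm2 among those that rose. All 19 interferon response genes tested rose, with a median of 4.12, and their summed level was 62.2 to 71.5 FPKM in the controls and 1431 to 1504 FPKM after knockdown, with Mx2 (6.36), Usp18 (6.22) and Ifit1 (6.11) rising most.

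**Figure D5:**
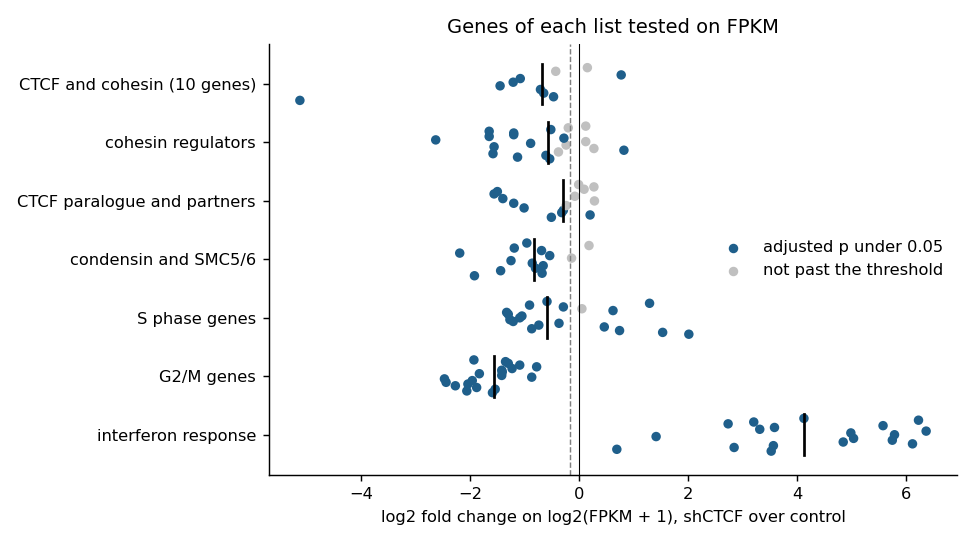
Log2 fold change on log2(FPKM + 1) of every gene tested in 7 lists, with genes past an adjusted p of 0.05 (limma) in blue, others in grey, a black bar at the median of the list and the dashed line at the median of all genes (-0.17). Cohesin, its regulators, condensin and SMC5/6 and the G2/M genes lie mostly left of the dashed line, and all interferon response genes lie right of 0.

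The genes whose pattern over the 6 samples was most like that of Ctcf were found among 6078 other genes with at least 10 FPKM in the mean of the controls, by the smallest root mean square difference in percent of the control mean. They were Atp2b4, Gfi1, Zbtb12, Ankrd37 and Myb, with differences of 4.11 to 5.22 percentage points. Gfi1 had 31.2, 32.2 and 31.5 FPKM in the controls and 1.57, 1.92 and 2.32 FPKM after knockdown. Myb had 92.3, 101 and 92.1 FPKM and then 5.73, 5.63 and 6.38 FPKM, and Ankrd37 was listed at 0 in all shCTCF samples. None of the cohesin genes was among them, which followed from the measure, since it favours a near-complete fall. Rad21, the cohesin gene that fell most, kept 36% of its control mean, compared with 1.14% for Ctcf. Whether the cohesin genes follow Ctcf was not tested.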

How the data were processed

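RNA-seq was analysed in 3 control and 3 shCTCF samples. Reads were aligned by the authors to mm9 with HISAT2. Using featureCounts 1.6.2, the authors produced the deposited counts, as whole fragments per RefSeq accession, unstranded and not normalized. The deposited FPKM were calculated by the authors with Cufflinks 2.2.1 and are scaled to transcript length and depth. Accessions were named with an NCBI gene table (names only) and summed per symbol. Unnamed accessions held at most 0.622% of a sample's counts. No value column was without a sample (0).

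Genes that averaged 1 FPKM or more were tested on log2(FPKM + 1) with limma 3.58.1 (trend, two-sided), a scale that understates changes of low genes. Counts were tested with edgeR 4.0.16 (quasi-likelihood, TMM, filterByExpr, R 4.3.3). P-values were adjusted by Benjamini-Hochberg over all genes, with a threshold of 0.05. In counts, 3 counts corresponded to 0.426 to 1.78 CPM, covering counting error only.

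The 10 genes, the lists and the tests were chosen with earlier results of these data known. Genes named were the 10, their direct cofactors and meiotic forms, up to 3 genes that fell and 3 that rose most per list, and the 5 most like Ctcf. Fits were checked on simulated data. Alternatives were other pseudocounts, filters, scalings, DESeq2 1.42.0, the other table, single accessions, a replicate block and leaving out each replicate.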

Additional observations from a re-analysis of the deposited data

How the results depend on the processing

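The number of the 10 genes called on FPKM was 8, and it stayed between 8 and 9 when each replicate was left out in turn and was 9 with the replicate number as a block. On the count table it was 4 of the 6 genes that could be tested, and leaving out each replicate gave 4 to 4. The number called on counts, 4, was 8 of 10 on the FPKM table. The number of the wider cohesin and CTCF partner genes called was 23 of 35 on FPKM, 20 to 28 without each replicate, 23 with the replicate block and 14 of 22 on counts. The pairs of genes without overlap were 8 of 11, 8 to 10 without each replicate and 2 of 3 on the count table, and 10 changed one way in all same-numbered pairs. Fewer genes could be tested on counts, by the construction of that table. Calls were common over all genes tested, with 44.2% lower and 28.8% higher on FPKM. On counts, 2519 of 7339 genes were called lower and 2553 higher. Ctcf changed by -5.16 to -5.08 on the log2 scale without each replicate and was -5.12 with the block, -4.42 for the row with the highest mean, -6.25 and -6.44 with pseudocounts of 0.1 and 0.01, and -5.37 to -4.99 with the other scalings.

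Differences changed sign in these cases, and the cause was not tested. On the count table Stag2 was 0.25, Nipbl 0.13, Brd2 -0.35 and Mcm7 0.06, and on the FPKM table Stag2 was -0.43 and Nipbl -0.47. For Wapl the accession with the highest mean gave -0.16. Nipbl on counts was -0.03 with library size scaling only, and without each replicate it lay between -0.34 (control replicate 3) and 0.67, with -0.02 without shCTCF replicate 3. Esco2 lay between -0.00 and 0.43 and the log2 difference of Smc1a to Smc3 between -0.24 and 0.04 without each replicate, with the changed sign in both without control replicate 2. Stag2 on counts of its highest accession alone was 0.81 (adjusted p = 0.00865 by edgeR). Of all single values, 880 kept their direction and call, 12 lost a call, 6 gained one and 12 changed sign.

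The labels give both groups the same replicate numbers. The residuals of samples sharing a number correlated at -0.041, 0.018 and 0.0395 over 9974 genes. No pairing by number was seen, but 3 samples in each group cannot exclude it. The block moved the count of the 10 genes from 8 to 9 by the call of Stag2.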
